A study of Mus musculus with 15 samples.

Results

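The genes described here are 35 genes of early neuron differentiation, chosen by symbol: 6 proneural and related basic helix-loop-helix factors, 8 other transcription factors of young neurons, 3 RNA-binding proteins, 12 genes of the neuronal cytoskeleton and 6 genes of the axon, membrane and signalling. They were followed in mouse embryos of embryonic day 9.5, with 18 to 20 somites, whose heads were measured on 1 bead array each. Of the 35 genes, 33 had at least 1 probe under their name (73 probes in all), 28 passed the filter on detection and are the genes tested, out of 11625 genes tested on the array. The study asked which genes need TWIST1, a transcription factor, in the mesoderm of the head. All embryos were of a mixed background (labelled C57Bl/6 x 129 x BALB/c) and carried at least 1 floxed Twist1 allele. Control heads (n = 3) were Twist1flox/+ with Mesp1+/+, so they held 2 working copies of Twist1 and no Cre. Het heads (n = 4) were Twist1flox/del with Mesp1+/+, with 1 copy deleted in every cell. CM-Het heads (n = 4) were Twist1flox/+ with Mesp1Cre/+, in which Cre made from the Mesp1 locus can remove 1 copy in the mesoderm lineage. CM-CKO heads (n = 4) were Twist1flox/del with Mesp1Cre/+, so they lack 1 copy everywhere and can lose the other in the mesoderm lineage. Both groups with Cre carry it in place of an allele of Mesp1, and how completely Cre acted was not measured.

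A neuron is born when a progenitor of the neural tube, of a cranial placode or of the neural crest switches on proneural factors such as NEUROG1 and NEUROG2. These drive later factors such as NEUROD4, INSM1, POU4F1 and PHOX2A, then RNA-binding ELAVL proteins, and at last the tubulins, microtubule-associated proteins and neurofilaments of the axon. At this stage the first neurons of the head form the cranial ganglia and the early tracts and motor nuclei of the brain stem. The Mesp1 lineage gives rise to cranial mesoderm, vessels and the heart, whereas neurons come from ectoderm.

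Both TWIST1 and the proneural factors are basic helix-loop-helix proteins, which bind the E-box, CANNTG. The 250 bases before a listed start of 3 genes that fell in CM-CKO heads (Uchl1, Tagln3 and Crmp1) and of Pou4f1, the gene with the highest difference against CM-Het heads, are shown so that these genes can be seen with and without that motif. The sequences are RefSeq's, build GRCm38.p6, read 5′ to 3′ toward the gene, and capitals mark CANNTG, which reads the same on both strands. They are chr5:66675871-66676120 on the plus strand for Uchl1, chr16:45724532-45724781 on the minus strand for Tagln3, chr5:37241808-37242057 on the plus strand for the first of the listed Crmp1 starts and chr14:104468000-104468249 on the minus strand for Pou4f1.
Uchl1: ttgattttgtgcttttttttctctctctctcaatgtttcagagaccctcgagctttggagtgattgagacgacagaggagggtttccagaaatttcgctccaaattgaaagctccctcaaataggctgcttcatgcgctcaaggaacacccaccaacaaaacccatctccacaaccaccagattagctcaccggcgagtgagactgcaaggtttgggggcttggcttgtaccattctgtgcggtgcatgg
Tagln3: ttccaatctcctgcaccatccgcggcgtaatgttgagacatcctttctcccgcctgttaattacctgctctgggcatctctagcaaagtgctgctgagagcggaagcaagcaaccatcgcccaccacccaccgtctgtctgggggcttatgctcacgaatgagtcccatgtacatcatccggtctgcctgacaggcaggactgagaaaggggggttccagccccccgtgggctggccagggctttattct
Crmp1: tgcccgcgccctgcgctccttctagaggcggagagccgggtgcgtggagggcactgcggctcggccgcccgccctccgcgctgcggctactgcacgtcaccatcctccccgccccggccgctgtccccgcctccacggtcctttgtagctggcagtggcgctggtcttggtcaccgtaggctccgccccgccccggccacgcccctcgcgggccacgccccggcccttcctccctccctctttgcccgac
Pou4f1: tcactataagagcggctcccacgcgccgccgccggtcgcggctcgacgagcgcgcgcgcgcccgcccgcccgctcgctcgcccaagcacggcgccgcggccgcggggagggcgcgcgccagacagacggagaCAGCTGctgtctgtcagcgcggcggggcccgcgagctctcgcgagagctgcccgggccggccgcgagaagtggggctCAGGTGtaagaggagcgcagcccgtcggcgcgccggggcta
The Pou4f1 stretch held 2 matches, CAGCTG 118 bases and CAGGTG 41 bases before the listed start. The gene is also annotated as a whole from 104461675 to 104468118, so both matches lie inside that longer span. The stretches of Uchl1, Tagln3 and the first Crmp1 start held 0. The stretch of the second Crmp1 start, chr5:37245514-37245763, held 1 match, CACCTG at 202 bases before the start. Mapt, which also fell in CM-CKO heads, had no promoter entry and is not shown. A promoter entry was found for 27 of the 35 genes (42 starts), and 21 of these 42 stretches held at least 1 match, against 66.2% of all 32851 mouse promoters of the same length. A match of these letters is a description of the window and not a binding site.

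The arrays had mean deposited signals of 341 to 434 and detected 19204 to 19793 probes each. They lay on 3 slides. CM-CKO 1 to 3 were on slide 1 beside Het 1 alone. On slide 2 were Control 1, Het 2 and 3, and CM-Het 1 and 2, and on slide 3 were Control 2 and 3, Het 4, CM-Het 3 and 4, and CM-CKO 4. CM-CKO heads therefore share a slide with Control or CM-Het heads only through CM-CKO 4. The probe of Twist1 read 9.86 to 9.94 in Control, 9.75 to 10.03 in CM-Het, 8.61 to 9.32 in Het and 8.93 to 9.33 in CM-CKO heads on the log2 scale, so the groups with a deleted allele lay below those without. Whether that probe lies in the deleted part of the gene was not analysed here. On the first principal component (37.3% of the variance) the CM-CKO heads lay apart from all others, at 9.57 (CM-CKO 3), 16.5 (CM-CKO 1), 33.5 (CM-CKO 2) and 45.2 (CM-CKO 4), against −11.1 to −7.56. The detection column of Het 1 could not be used, so its detection p-values are an average of the other arrays by rank.

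Of the 28 genes that passed the filter (detection p under 0.05 on at least 3 arrays), 23 were detected on all 15 arrays. Neurod1, a later proneural factor, and Gng3, a G protein subunit of neurons, were detected on only 3 arrays each. The 5 genes below the filter were the helix-loop-helix factors Nhlh1 and Nhlh2 and the neurofilament Nefl, each detected on 0 arrays, and the neuronal tubulin Tubb3 and the axonal adhesion protein Cntn2, each detected on at most 1. Tubb3, a widely used marker of young neurons, read 4.36, 4.29 and 4.25 in Control, 4.37, 4.37, 4.37 and 4.41 in Het, 4.46, 4.37, 4.44 and 4.38 in CM-Het and 4.43, 4.82, 4.41 and 4.24 in CM-CKO heads. It was detected in 1 CM-CKO head only and was not tested. Onecut1 and Ebf4 had no probe under that name and were not analysed here. Where a gene had several probes, the brightest that passed was used.

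A head is a mixture, and fewer cells of a type and less RNA per cell cannot be told apart in these values. The heads differed widely in how many of the 28 genes lay above their median over all 15 heads. In Control heads the counts were 11, 24 and 9, in Het heads 6, 21, 22 and 20, in CM-Het heads 8, 20, 11 and 7, and in CM-CKO heads 11, 8, 15 and 3. High or low values of many neuron genes thus sat in the same heads within a genotype: Control 2 was the highest Control head for 23 genes, CM-Het 2 the highest of its group for 16, and Het 1 the lowest Het head for 20. The lowest count of all belonged to CM-CKO 4, which was the lowest CM-CKO head for 15 of the 28.

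**Figure D1:**
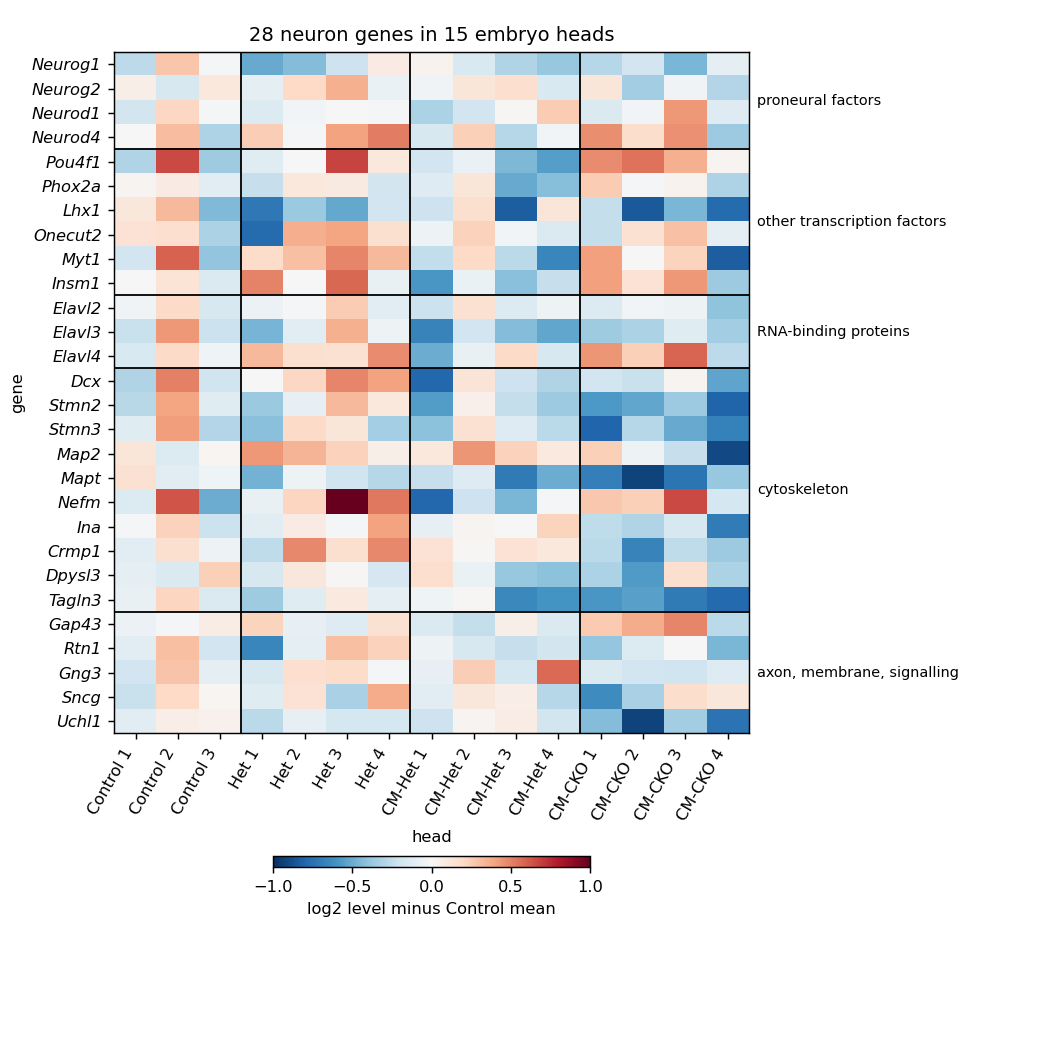
Log2 level of each of 28 neuron genes (rows, grouped by role) in each of 15 heads (columns, grouped by genotype), as the difference from the mean of the 3 Control heads; blue is lower and red is higher, with colours ending at 1 log2 unit. The blue block in the 4 CM-CKO columns lies mainly in the cytoskeleton rows and in Uchl1, while Pou4f1 is above the Control mean in all 4 CM-CKO heads.

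In CM-CKO heads compared with Control heads, 3 of the 28 genes fell and 0 rose. They were Mapt, which encodes the microtubule-associated protein tau, Uchl1, a ubiquitin hydrolase abundant in neurons, and Tagln3, an actin-binding protein of neurons. Over all genes 7.23% were called in this comparison with 3.27% lower and 3.96% higher. Leaving out Control 1 or Control 2 left 1 call among the 28. The median change of the 28 genes was −0.20 on the log2 scale, against −0.03 over all genes. Of the 28 genes 20 were below 0 (71.4%, against 54.8% of all genes). The p-values are those of limma over all 11625 genes with Benjamini-Hochberg adjustment, and a gene counts as called at adjusted p under 0.05. They set the difference between genotypes against the spread between embryos of a genotype, which also holds differences between slides. Slide differences also enter the difference between genotypes, because most CM-CKO heads were on a slide without Control or CM-Het heads.

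Uchl1 (chromosome 5, 66676121 to 66687234, GRCm38.p6) read 9.38, 9.55 and 9.53 in Control heads and 9.05, 8.56, 9.14 and 8.74 in CM-CKO heads. Every CM-CKO head lay below every Control head. The fall was 0.61 ± 0.13 (SE), to 65.3% of Control (adjusted p = 0.01004). It was 0.63 with slide as a block (adjusted p = 0.0392) and 0.79 within slide 3, and leaving out Control 2 put it just past the threshold (adjusted p = 0.05046).

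Mapt (chromosome 11, 104229409 to 104332090) read 6.83, 6.57 and 6.64 in Control heads and 5.99, 5.75, 5.94 and 6.30 in CM-CKO heads, again with no overlap. It fell by 0.68 ± 0.15 (SE), to 62.3% of Control (adjusted p = 0.01469). Tagln3 (chromosome 16, 45711230 to 45724531) read 8.09, 8.37 and 8.02 in Control heads and 7.57, 7.61, 7.45 and 7.38 in CM-CKO heads, which were the tightest group for this gene (SD 0.11). It fell by 0.65 ± 0.16 (SE), to 63.6% of Control (adjusted p = 0.02614). With slide as a block the Mapt difference was −0.40 (adjusted p = 0.0854) and the Tagln3 difference −0.57 (adjusted p = 0.0773), and neither passed. Within slide 3, where CM-CKO 4 is the 1 head of its genotype, the differences were −0.31 and −0.81. The Mapt call was lost without Control 1 or CM-CKO 2, and the Tagln3 call without Control 1 or Control 2 (highest adjusted p 0.0747 and 0.118).

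The cytoskeleton genes had a median of −0.37, with 9 of 10 below 0 and the 2 calls named above. Stmn2, which destabilises microtubules in growing axons, read 7.82, 8.48 and 7.97 in Control heads and 7.51, 7.57, 7.73 and 7.29 in CM-CKO heads. The groups did not overlap, but its difference of −0.56 ± 0.19 (SE) did not pass (adjusted p = 0.0809). Its relative Stmn3 was at −0.56 (adjusted p = 0.0940), the microtubule regulator Crmp1 at −0.39 (adjusted p = 0.145) and the neurofilament protein Ina at −0.36 (adjusted p = 0.167). Dcx, a microtubule protein of migrating neurons, read 5.65, 6.45 and 5.75 in Control heads and 5.76, 5.73, 5.98 and 5.42 in CM-CKO heads. These groups overlapped, the difference was −0.23 (adjusted p = 0.580), and without Control 2 it was 0.02. Map2, a microtubule-associated protein, was at −0.24 (adjusted p = 0.513). The fit blocked by slide called it lower, at −0.64 (adjusted p = 0.0374). In that fit Map2 and Uchl1 were the 2 genes called against Control. The exception among the cytoskeleton genes was Nefm, a neurofilament subunit, at 0.25 (adjusted p = 0.651).

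The regulators upstream of these genes showed no call against Control. The 4 measured proneural factors had a median of −0.05. Neurog1, the determination factor of sensory ganglion neurons, read 4.96, 5.49 and 5.20 in Control heads and 4.93, 5.03, 4.76 and 5.12 in CM-CKO heads, and was detected on 14 of 15 arrays (difference −0.26, adjusted p = 0.344). Neurog2 read 6.42, 6.19 and 6.46 in Control heads and 6.47, 6.01, 6.32 and 6.06 in CM-CKO heads, and the groups overlapped (−0.14, adjusted p = 0.604). Of the other transcription factors, with a median of 0.01, Lhx1, a LIM factor of interneurons and of other tissues, had the largest difference at −0.58 ± 0.23 (adjusted p = 0.149). Its levels were 5.88, 6.09 and 5.32 in Control heads against 5.53, 4.93, 5.30 and 4.99 in CM-CKO heads. The RNA-binding gene Elavl3 read 7.55, 8.20 and 7.55 in Control heads and 7.41, 7.45, 7.64 and 7.42 in CM-CKO heads, a difference of −0.29 that did not pass (adjusted p = 0.381) and was −0.0688 without Control 2. Elavl4, of the same family, stood at 0.25 (adjusted p = 0.458). In all, 5 of 28 genes had groups that did not overlap, against 20.1% of all genes.

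**Figure D2:**
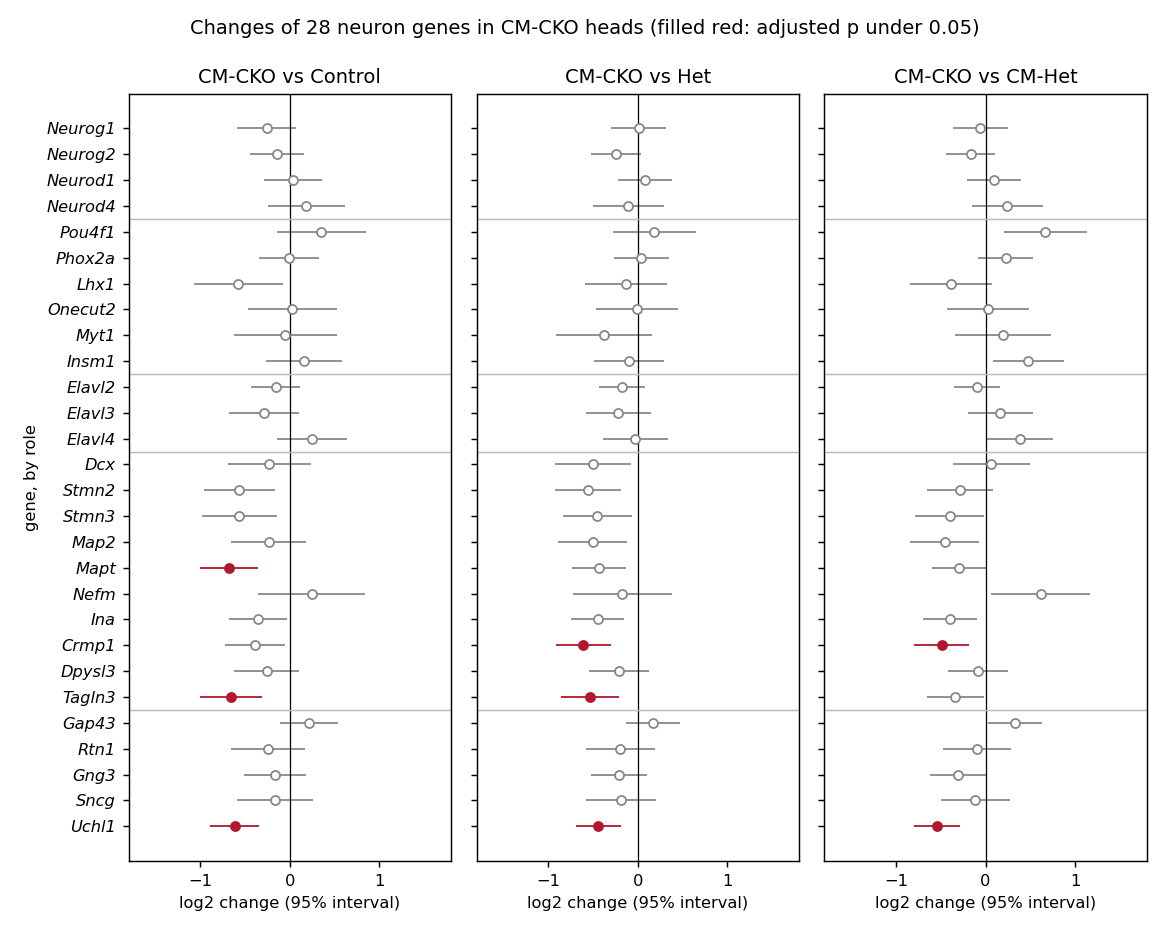
Log2 change (horizontal axis) with its 95% interval for each of 28 neuron genes in CM-CKO heads against Control, Het and CM-Het heads; filled red points have adjusted p under 0.05. All filled points lie below 0 and belong to Uchl1, Mapt, Tagln3 and Crmp1, and Pou4f1 has the highest value against CM-Het, at 0.67.

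The comparison of CM-CKO with Het heads holds the Twist1 alleles constant and adds Cre. Here 3 of 28 genes fell and 0 rose, against 8.46% of all genes called with 4.32% lower and 4.15% higher. Uchl1 and Tagln3 fell again, and Crmp1, a semaphorin signalling protein that binds the cytoskeleton, joined them. The median of the 28 genes was −0.20 (all genes −0.04), with 23 below 0 (82.1%, against 58.1% of all genes). Because CM-CKO heads serve in all of these comparisons, the calls in 1 are not independent of those in another.

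Crmp1 (chromosome 5, 37242058 to 37292163) read 7.90, 8.63, 8.31 and 8.63 in Het heads and 7.88, 7.48, 7.89 and 7.78 in CM-CKO heads. The groups did not overlap, but Het 1, on the same slide as CM-CKO 1 to 3, lay within 0.02 of the highest CM-CKO head. It fell by 0.61 ± 0.15 (SE), to 65.7% of Het (adjusted p = 0.01745). The second probe of the gene was at −0.44 (adjusted p = 0.0942 over all probes).

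Tagln3 read 7.80, 8.04, 8.25 and 8.07 in Het heads, all above the CM-CKO heads, and fell by 0.54 ± 0.15 (SE), to 69.0% of Het (adjusted p = 0.03919). Uchl1 read 9.22, 9.40, 9.31 and 9.31 in Het heads, a narrow range above every CM-CKO head, and fell by 0.44 ± 0.12 (SE), to 73.8% of Het (adjusted p = 0.03368). With slide as a block none of these 3 genes passed: Crmp1 was at −0.46 (adjusted p = 0.0834), Tagln3 at −0.40 (adjusted p = 0.129) and Uchl1 at −0.45 (adjusted p = 0.0711). Within slide 1 (3 CM-CKO heads and Het 1) the differences were −0.14, −0.26 and −0.30, and within slide 3 (1 head each) −0.85, −0.69 and −0.57. The count of calls was 0 without Het 2, without Het 4 or without CM-CKO 2, 1 without Het 3, and 6 without Het 1, the Het head with the lowest neuron genes. Of the 15 fits that leave out 1 head, Tagln3 lost its call in 8, Uchl1 in 5 and Crmp1 in 3.

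All 10 cytoskeleton genes were below 0 against Het heads, at a median of −0.48. Stmn2 read 7.72, 8.01, 8.41 and 8.19 in Het heads overlapping with CM-CKO heads, and the difference was −0.56 ± 0.17 (adjusted p = 0.0577). Map2, the microtubule-associated protein of cell bodies and dendrites, read 9.14, 9.04, 8.93 and 8.76 in Het heads and 8.94, 8.66, 8.47 and 7.80 in CM-CKO heads. Its difference of −0.50 ± 0.18 did not pass (adjusted p = 0.102), but with slide as a block it was −0.71 (adjusted p = 0.00980), the only neuron gene called in that fit. CM-CKO 4, far below the other CM-CKO heads for Map2, is also the head that links CM-CKO to the other genotypes on slide 3. The 2 dimmer Map2 probes, detected on 6 and 7 arrays, were at −0.19 and 0.04 in this comparison.

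Regulators again held no call against Het. The proneural median was −0.05, that of the other transcription factors −0.05 and that of the RNA-binding genes −0.17. Within slide 1 the 28 genes were evenly split, with 14 below 0 and a median of −0.00, whereas within slide 3 all 28 were below 0 at a median of −0.38. Both of these rest on 1 Het head, and that of slide 3 also on 1 CM-CKO head.

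CM-CKO and CM-Het heads both carry Cre and differ in whether the second Twist1 allele is wild type or deleted. Here 2 of 28 genes fell and 0 rose, against 9.90% of all genes called with 4.61% lower and 5.29% higher. The median was −0.09 (all genes −0.03), with 16 of 28 below 0 (57.1%, against 56.5% of all genes). Uchl1 read 9.28, 9.52, 9.56 and 9.31 in CM-Het heads, above every CM-CKO head, and fell by 0.54 ± 0.12 (SE), to 68.6% (adjusted p = 0.01071). Crmp1 read 8.29, 8.16, 8.29 and 8.25 in CM-Het heads and fell by 0.49 ± 0.15 (SE), to 71.1% (adjusted p = 0.04384).

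The Uchl1 call held when any 1 of the 15 heads was left out (adjusted p 0.00342 to 0.0400), and with slide as a block it was at −0.56 (adjusted p = 0.0518). The Crmp1 call was lost in 10 of the 15 fits that leave out 1 head, among them those without any 1 of the 4 CM-Het heads, and with slide as a block the difference was −0.26 (adjusted p = 0.407). Within slide 3 the differences were −0.69 for Uchl1 and −0.49 for Crmp1. Map2 read 8.81, 9.14, 8.93 and 8.80 in CM-Het heads and was at −0.46 (adjusted p = 0.129), and at −0.82 with slide as a block (adjusted p = 0.00948).

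Against CM-Het heads several regulators lay on the other side of 0. Pou4f1, a POU factor of sensory ganglion neurons, read 6.85, 6.98, 6.60 and 6.50 in CM-Het heads and 7.52, 7.59, 7.41 and 7.08 in CM-CKO heads. No CM-Het head reached a CM-CKO head, and the difference of 0.67 ± 0.22 (SE), to 159% of CM-Het, had adjusted p = 0.0654. Control heads overlapped with both, at 6.75, 7.71 and 6.69, as did Het heads at 6.93, 7.05, 7.72 and 7.15.

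Nefm read 6.39, 6.97, 6.72 and 7.16 in CM-Het heads and 7.44, 7.41, 7.84 and 7.00 in CM-CKO heads, a difference of 0.61 ± 0.26 that did not pass (adjusted p = 0.152). Of its other probes 1 was at 0.75 (adjusted p = 0.0347 over all probes) and 1 at 0.49 (adjusted p = 0.212). Insm1, a zinc finger factor of newborn neurons, and Gap43, a growth cone protein, were at 0.48 (adjusted p = 0.117) and 0.33 (adjusted p = 0.157), and Elavl4 at 0.38 (adjusted p = 0.174). These 3 genes are singled out after their values were seen, because the fit without CM-CKO 4 called them higher together with Pou4f1. In that fit Pou4f1 was at 0.78 (adjusted p = 0.0457), Insm1 at 0.65 (adjusted p = 0.0238), Elavl4 at 0.55 (adjusted p = 0.0311) and Gap43 at 0.49 (adjusted p = 0.0118), while Uchl1 remained lower at −0.50 (adjusted p = 0.0242). CM-CKO 1 to 3 share slide 1, which holds no CM-Het or Control head, so in that fit the slide and the genotype cannot be told apart. Within slide 3, CM-CKO 4 was 0.53 above the CM-Het heads for Pou4f1, and the differences for Insm1, Elavl4 and Gap43 were −0.04, −0.27 and −0.23.

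**Figure D3:**
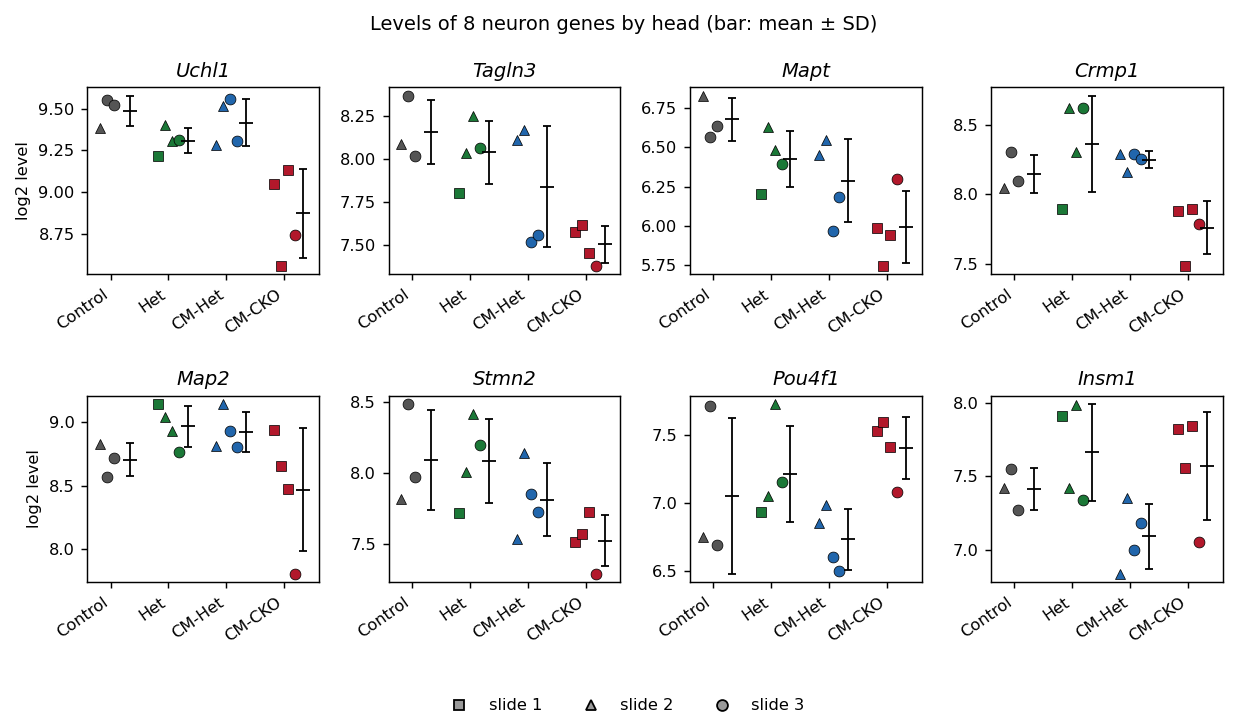
Log2 level (vertical axis) of 8 neuron genes in each head, by genotype; each point is a head, its shape gives the slide, and the bar beside each group is the mean ± SD (n = 3 Control, n = 4 in each other group). Uchl1 in CM-CKO heads lies below every other head, whereas Pou4f1 in CM-CKO heads lies above every CM-Het head and overlaps with Control and Het.

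Deletion of 1 Twist1 copy in all cells gave no call among the neuron genes. Between Het and Control heads 0 of 28 genes passed with limma, as did 0 of 11625 genes (0% called). At an unadjusted p under 0.05 there were 635 genes, of which 0 were neuron genes. The median of the 28 was 0.03, with 12 below 0 (42.9%, against 44.8% of all genes). Of the 28 genes 0 had groups that did not overlap (6.00% of all genes).

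The largest differences were those of Lhx1, at −0.45 ± 0.23, Nefm, at 0.42 ± 0.28, and Myt1, at 0.33 ± 0.27 (adjusted p 0.922 to 0.956). They depended on single Control heads: without Control 2 they were −0.28, 0.73 and 0.62, and without Control 3 −0.67, 0.17 and 0.13. Nefm was at 0.23 without Het 3. Lhx1 read 5.05, 5.39, 5.25 and 5.57 in Het heads, with 2 of them below the lowest Control head, and the groups overlapped. Nefm read 7.04, 7.81 and 6.68 in Control heads and 7.11, 7.39, 8.17 and 7.71 in Het heads, and Het 3 was its highest head of all 15. Myt1, a zinc finger factor of neuronal fate, read 5.30, 6.08 and 5.09 in Control heads, 5.68, 5.80, 5.98 and 5.82 in Het heads, 5.25, 5.69, 5.22 and 4.84 in CM-Het heads and 5.90, 5.49, 5.72 and 4.67 in CM-CKO heads. The Het heads were the tightest group for Myt1, inside the Control range. The early markers Neurog1 (4.71, 4.78, 5.01 and 5.30), Neurog2 (6.26, 6.55, 6.71 and 6.29), Dcx (5.95, 6.16, 6.44 and 6.35) and Elavl3 (7.30, 7.66, 8.12 and 7.71) in Het heads all overlapped with Control.

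Cre on a wild-type second allele likewise gave 0 calls among 28 genes and 0 among 11625 (0%), with 413 genes at an unadjusted p under 0.05, of which 2 were neuron genes. The median of the 28 in CM-Het against Control heads was −0.16 (all genes 0.01). Of the 28 genes 22 were below 0 (78.6%, against 47.9% of all genes). Within slide 2 (2 CM-Het heads and Control 1) 14 of 28 were below 0, and within slide 3 (2 heads each) 22 of 28 at a median of −0.26. The 2 genes were Elavl3, at −0.45 ± 0.19, and Mapt, at −0.39 ± 0.15 (each adjusted p = 0.9998). Elavl3 read 7.10, 7.57, 7.34 and 7.25 in CM-Het heads, and Mapt 6.45, 6.55, 5.97 and 6.18. Mapt was the 1 gene of 28 whose groups did not overlap (6.98% of all genes), and CM-CKO heads lay lower still at a mean of 6.00 against 6.29 in CM-Het and 6.43 in Het heads. The Het heads read 6.20, 6.63, 6.48 and 6.39 for Mapt.

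Nefm was at −0.37 ± 0.28 in CM-Het heads, and at −0.0509 without Control 2 and −0.61 without Control 3. Elavl3 was at −0.23 without Control 2. Neurog1 (5.25, 5.07, 4.92 and 4.84), Neurog2 (6.32, 6.48, 6.53 and 6.20) and Dcx (5.16, 6.08, 5.74 and 5.65) in CM-Het heads overlapped with Control heads. Tagln3 fell into pairs by slide in CM-Het heads, at 8.11 and 8.17 on slide 2 against 7.52 and 7.56 on slide 3. For Tagln3, Control 1 on slide 2 read 8.09, and Control 2 and 3 on slide 3 read 8.37 and 8.02. The cause of the pairs in CM-Het heads was not tested. Stmn2 (7.53, 8.14, 7.85 and 7.73) and Lhx1 (5.56, 5.92, 4.94 and 5.89) spread widely within CM-Het heads.

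Whether Cre changed a gene more on the deleted than on the wild-type second allele was tested by the interaction, the CM-CKO minus Het change less the CM-Het minus Control change. Of 28 genes 0 passed, against 1.07% of all genes (124, with 0.671% higher and 0.396% lower). At an unadjusted p under 0.05 there were 1729 of 11625 genes, of which 3 were neuron genes. The largest values were −0.72 ± 0.27 for Map2 (adjusted p = 0.221), −0.71 ± 0.21 for Crmp1 (adjusted p = 0.130) and 0.50 ± 0.32 for Pou4f1 (adjusted p = 0.489), which was 0.17 without Control 2. Map2 read 8.83, 8.57 and 8.72 in Control heads, so it was higher than Control in the means of Het and CM-Het heads (8.97 and 8.92 against 8.71) and lower in CM-CKO heads (8.47). Crmp1 read 8.05, 8.31 and 8.10 in Control heads and had the same order. With slide as a block Map2 was at −0.89 (adjusted p = 0.04065), and without Het 1 Crmp1 was at −0.86 (adjusted p = 0.0223). These are calls of single alternative fits. In the reported fit the change with Cre was not shown to differ between the 2 second alleles for any neuron gene. This is a different question from the CM-CKO and CM-Het comparison, which called Uchl1 and Crmp1.

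Of the remaining measured genes none passed in any of these comparisons, and each is given by its range of group means on the log2 scale. Phox2a, which specifies visceral neurons of the head, ranged from 6.51 in CM-Het to 6.75 in Control heads, and Onecut2 from 8.47 in Control to 8.51 in Het heads. Neurod4 ranged from 6.19 in CM-Het to 6.54 in Het heads, and Neurod1 from 4.61 to 4.70, close to the detection limit. Elavl2 ranged from 9.57 in CM-CKO to 9.75 in Het heads, and the collapsin response protein gene Dpysl3 from 8.60 in CM-CKO to 8.86 in Control heads. Rtn1, a reticulon of neuronal membranes, ranged from 9.36 in CM-CKO to 9.61 in Control heads, but its probes disagreed: against Control 3 lay between −0.36 and −0.24 and 1 at 0.51 (adjusted p = 0.206 over all probes). Sncg, a synuclein of sensory neurons, ranged from 4.91 to 5.09 and Gng3 from 4.37 to 4.67. Gng3 in CM-CKO and Het heads and Neurod1 in Het heads were not well above background on any array, and no fold is given for them.

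Other genes of the same pathway, from lists that hold none of the 35 genes, are given by their counts, to be read beside the 7.23%, 8.46% and 9.90% of all genes called against Control, Het and CM-Het. Of 11 measured neurogenesis regulators 1 was lower in CM-CKO than in Control heads, the Notch ligand Dll1, which marks newborn neurons (fell by 0.41 ± 0.11, adjusted p = 0.03075). Against CM-Het heads 1 was higher, Gadd45g, which accompanies cell cycle exit (0.61 ± 0.14, adjusted p = 0.01206). Of 14 measured subtype factors 1 was lower against Control, the homeobox gene Barhl1 (fell by 0.50 ± 0.13, adjusted p = 0.03019), and 0 passed against Het or CM-Het. With slide as a block Dll1 and Barhl1 did not pass (adjusted p 0.130 and 0.0509), and 1 neurogenesis regulator was called higher and 1 lower in each comparison.

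Of 36 measured axon and synapse genes 2 were higher and 1 lower against Control, 2 higher and 3 lower against Het, and 2 higher and 2 lower against CM-Het. The 2 higher genes were the same each time. Reln, the extracellular guidance protein of Cajal-Retzius and other early neurons, rose by 1.65 ± 0.29 against Control (adjusted p = 0.00338), by 1.46 ± 0.27 against Het and by 1.70 ± 0.27 against CM-Het, and kept its call with slide as a block. Sncb, a synuclein detected on only 5 arrays, was the other (adjusted p = 0.005376 against Control). The lower ones included the tubulin Tubb4a against Control (fell by 0.44 ± 0.13, adjusted p = 0.04794), the kinesin Kif5a against Het (fell by 0.71 ± 0.17, adjusted p = 0.01928) and the axon initial segment protein Ank3 against Het (fell by 0.51 ± 0.14, adjusted p = 0.03038). With slide as a block Tubb4a (−0.32, adjusted p = 0.256) and Kif5a (−0.60, adjusted p = 0.0916) did not pass, and Ank3 did. The medians of the 36 were −0.06, −0.08 and −0.03 in the 3 comparisons, and −0.20, −0.14 and −0.13 with slide as a block, where all genes were at −0.05. Within slide 3, 30 of 36 lay below Control at a median of −0.31, and 32 of 36 lay below Het. Both of these counts rest on 1 CM-CKO head. No other CM-CKO head shares a slide with Control or CM-Het heads, which also limits the medians with slide as a block. Within slide 1, with 3 CM-CKO heads and 1 Het head, 14 of 36 lay below Het at a median of 0.02.

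Markers of other cells in the head also differed, and they are given because each value is an average over the head. Neural progenitor markers, from which neurons arise, had medians of −0.10 (Control), −0.16 (Het) and −0.13 (CM-Het), with 3, 2 and 2 of 15 lower. Blocked by slide, the medians were −0.28, −0.29 and −0.24, with 3, 4 and 2 lower. Sox3, a progenitor factor, fell by 1.08 ± 0.15 against Control (adjusted p = 0.0004877), and Dbx1 fell by 0.66 ± 0.15 (adjusted p = 0.01696). The summed progenitor level was lowest in CM-CKO 4 (12.39) and ran from 12.74 to 13.02 in the other CM-CKO heads and from 12.92 to 13.16 in all others. Regional brain markers, measured for 9 genes, had 0 calls in each comparison, but 2, 1 and 2 were called lower with slide as a block. Their medians were 0.0045 against Control and −0.19 against Het, and −0.19 and −0.39 with the block. Between CM-Het and Control heads 5 of the 9 were below 0, and 3 had groups that did not overlap (6.98% of all genes). Mean Hoxb1 was 5.598 in Control, 5.79 in Het, 4.355 in CM-Het and 5.603 in CM-CKO heads. In the same order Hoxa2 was at 7.95, 7.76, 6.85 and 7.48, and Egr2 at 5.11, 5.105, 4.55 and 5.26. Hoxb1 was detected on 9 arrays and Egr2 on 10. Whether these lower markers bear on the neuron genes of CM-Het heads was not tested. Of 5 neural crest and glia markers 1 was higher against Control (Sox10, 0.72 ± 0.17, adjusted p = 0.02005) and 1 lower against Het and CM-Het (Ets1). Blocked by slide, 0 of the 5 passed (Sox10 0.46, adjusted p = 0.182). Of 8 surface ectoderm markers 1, 2 and 1 were higher and 0 lower. Of 6 placode and ear markers 1, Eya1, which placodes and head mesenchyme both express, was lower in each comparison, by 0.54 ± 0.14 against Control. Trunk markers (4 measured, each undetected on some arrays) had 0 calls. Their medians were 0.26 against Control, 0.27 against Het and 0.13 against CM-Het, and 0.48, 0.40 and 0.33 with the block. The 6 endocrine markers, which share Insm1 and Neurod1 as regulators, were all without a kept probe.

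Red blood cell markers separated the CM-CKO heads most. Their median level lay 1.22, 2.91, 0.58 and 3.76 above the Control mean in CM-CKO 1 to 4 and between −0.56 and 0.12 in all other heads, and 10, 11 and 12 of 15 were higher against Control, Het and CM-Het. Their summed log2 level ran from 15.56 to 15.82 in Control, 15.46 to 15.76 in Het, 15.27 to 15.75 in CM-Het and 15.87 to 16.51 in CM-CKO heads. Mesenchyme markers ran from 10.77 to 10.86 in Control heads and 10.05 to 10.53 in CM-CKO heads (3, 6 and 3 of 10 lower against Control, Het and CM-Het, led by Lum), and endothelial markers from 12.51 to 12.59 and 12.13 to 12.33 (3, 6 and 6 of 11 lower, led by Emcn and Sox7). Uchl1 and Crmp1 were lowest in CM-CKO 2 and 4, the heads with the highest red blood cell markers. The other genes called lower did not share this order. Among CM-CKO heads Mapt was lowest in CM-CKO 2 (5.75) and highest in CM-CKO 4 (6.30). Tagln3 was highest in CM-CKO 2 (7.61) and lowest in CM-CKO 4 (7.38). The median red blood cell level was higher in every CM-CKO head than in any other head. A fit with these markers as a covariate therefore cannot tell them apart from the genotype. With the mean of the red blood cell list as a covariate, Uchl1 was at −0.18 against Control (adjusted p = 0.626), 0.04 against Het and −0.07 against CM-Het. Mapt and Tagln3 were at −0.97 and −0.82 against Control in that fit and did not pass (adjusted p = 0.0672 and 0.145), and Elavl4 was called higher (0.96, adjusted p = 0.0456). Against CM-Het heads that fit called Elavl4 (1.17, adjusted p = 0.0293) and Gap43 (0.94, adjusted p = 0.0428) higher. Whether red blood cells account for any of these differences was not tested, nor was the part of mesenchyme and endothelial markers.

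**Figure D4:**
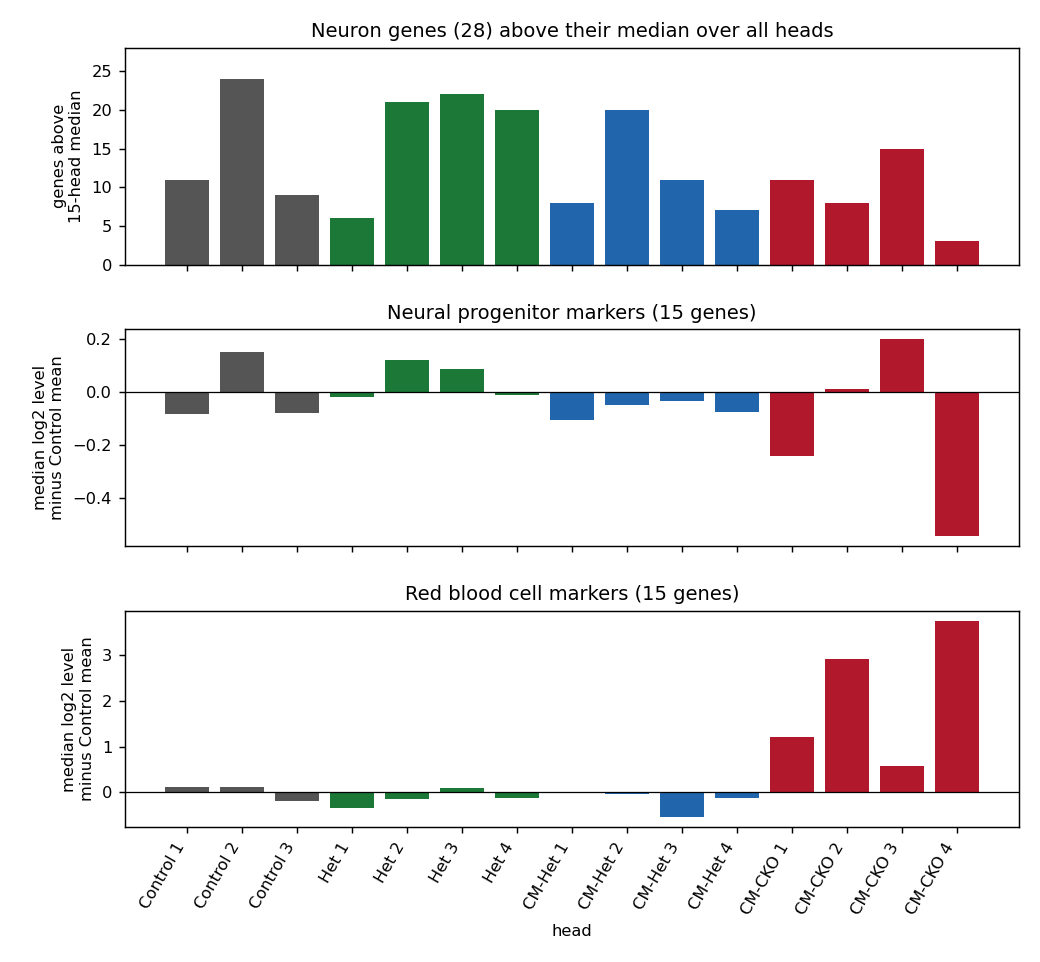
For each of 15 heads, coloured by genotype: the number of the 28 neuron genes above their 15-head median (top), and the median log2 level minus the Control mean of 15 neural progenitor markers (middle) and 15 red blood cell markers (bottom). Neuron gene counts vary within every genotype, from 9 to 24 among Control heads, while red blood cell markers are above Control in all 4 CM-CKO heads and highest in CM-CKO 4.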

How the data were processed

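RNA from 15 embryo heads was measured on Illumina bead arrays, 1 array per head. The deposited signals are summarised bead intensities, described as not normalized per the file headers, with a detection p-value per probe deposited beside each. The authors' value table holds log2 values, which matched quantile-normalized log2 signals without background correction within 0.02 for 42477 of 45281 probes and for all 28 tested neuron genes. Its software was not given in the sources used here.

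The deposited detection p-values were out of row order (74.4% to 75.6% of entries per array out of place by over 0.05), so they were put back on the signals by rank. The detection column of Het 1 held its log2 values of the value table, so 1 column was not used, and the rank average of the other 14 arrays stood in. Signals were corrected with limma's normexp using detection p-values (offset 16), quantile normalized and put on the log2 scale. A probe was kept with detection p under 0.05 on at least 3 arrays (21869 probes), and the brightest kept probe stood for a gene. Of all probes 34885 had 1 gene name in the platform annotation, 18 several and 10378 none. The signal at the detection threshold was 106 to 121, and the number of arrays limits the precision. All 15 arrays entered 1 limma fit with genotype as the only term (R 4.3.3, limma 3.58.1, figures with matplotlib 3.10.9), with Benjamini-Hochberg adjustment over 11625 genes. The procedure was tested on simulated data.

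Values in every head are given for genes called in any comparison, for the 3 genes with the largest change in each comparison, and for Tubb3, Dcx, Elavl3, Neurog1 and Neurog2; of the other lists at most 3 genes per direction and comparison are named. The genes and lists were chosen with earlier results of these data known. Alternatives were no background correction, median scaling, the authors' value table, other filters and probe rules, slide or replicate number as a block, red blood cell markers as a covariate, and leaving out each head.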

Additional observations from a re-analysis of the deposited data

Results flagged for a closer look

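Each of the 28 measured neuron genes was examined in each genotype with 4 heads, which makes 84 groups. In 1 of them a head stood apart from the others by Dixon's criterion, and chance alone gives about 1 in 20. The gene was Elavl3 in CM-CKO heads, where CM-CKO 3 read 7.64 and the other 3 heads lay between 7.41 and 7.45.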

How the results depend on the processing

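The number of neuron genes called was small and moved with several settings. Against Control it was 3, and 1 with median scaling, 0 with the replicate block together with slide, and 1 with red blood cell markers as a covariate (1 to 3 when each head was left out). Against Het it was 3, and 1 with median scaling, 1 with slide as a block, 5 with the replicate block, 1 with the replicate block together with slide, 0 with the red blood cell covariate and 1 with only the arrays compared (0 to 6 when each head was left out). Against CM-Het it was 2, and 1 with no detection filter, 1 with slide as a block and 0 with the replicate block together with slide (1 to 5 when each head was left out). In the interaction it was 0, and 1 with slide as a block (0 to 1 when each head was left out), and for Het and CM-Het against Control it was 0 in every setting run. These counts did not always hold the same genes. With the red blood cell covariate the call against Control was Elavl4, higher. Against CM-Het that covariate called Elavl4 and Gap43, both higher, and no longer Uchl1 or Crmp1. With slide as a block the call against Het, against CM-Het and in the interaction was Map2, lower, which the reported fit did not call. The median of the 28 genes was −0.0379 against Het with the red blood cell covariate and −0.23 in the interaction with median scaling, which shifts the median of all genes there by −0.17 (by 0.12 for CM-Het against Control). Leaving out each head gave medians of −0.27 to −0.07 against Control, −0.29 to −0.15 against Het, −0.15 to −0.04 against CM-Het, −0.03 to 0.12 for Het against Control, −0.21 to −0.03 for CM-Het against Control and −0.19 to 0.02 for the interaction. Uncalled differences against Control changed sign for Neurog1 (0.10) and Neurog2 (0.0794) with the replicate block together with slide, and for Dcx (0.0849) and Neurog2 (0.15) with the red blood cell covariate. Uchl1 against Het changed sign with that covariate (0.0370), and Dcx against Control lay between −0.379 and 0.0244 when each head was left out, above 0 without Control 2. The cause of these changes was not tested. Over all genes, median scaling called 434, 582 and 885 genes and the red blood cell covariate 176, 52 and 118, against 840, 984 and 1151 (Control, Het, CM-Het), and slide as a block called 263 against 124 in the interaction. Same-numbered heads are not paired by the labels: of 21 such pairs 5 correlated over 0.1 (−0.13 to 0.33), and 9 of 15 heads correlated best with their own number. Most of those 5 pairs also shared a slide, among them the highest, Het 1 with CM-CKO 1. The correlations therefore cannot tell number and slide apart. Genes near the detection threshold, such as Neurod1, Gng3 and Neurog1, have differences that the array background limits.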
